A study of Mus musculus with 7 samples.

Results

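The 8 genes Trim10, Trim58, Ube2l6, Ube2o, Fbxo7, Bnip3l, Ulk1 and Xpo7 encode ubiquitin ligases and conjugating enzymes, a mitochondrial clearance receptor, an autophagy kinase and a nuclear exportin of the last steps of red cell formation. They were taken by name from the authors' table of gene comparisons and joined by identifier to the 7 count files, where all 8 of 38924 genes were found and all 8 had enough reads to be tested. The set was selected on published roles with earlier results of the knockout against wild type comparison in view. Its differences in that comparison, and the counts of members past a threshold, are therefore a description and support nothing by themselves. The libraries were made from messenger RNA of mouse fetal liver, all at an embryonic age of 12.5 days post coitum. Of these 4 were wild type and 3 were labelled PCBP2 knockout, a loss of the poly(C)-binding protein Pcbp2. The labels give no allele, strain, sex, litter or batch, and do not say that each library came from a separate embryo, so the spread behind each p-value is that among these libraries and may be technical. At this age the fetal liver is a blood-forming organ, and most of its red cell precursors carry nuclei and mitochondria that later stages discard.

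Red cells end their development by rebuilding themselves. Ubiquitin, a small protein tag, is passed from activating (E1) to conjugating (E2) to ligase (E3) enzymes and marks proteins of the precursor for destruction by the proteasome. Mitochondria are wrapped in membrane and delivered to lysosomes by autophagy, and the nucleus is condensed and pushed out. Trim10 and Trim58 are RING-type E3 ligases made mostly in red cell precursors, and Trim58 is known for marking the motor dynein. Ube2o is an E2 that also acts as a ligase and clears ribosomal proteins from reticulocytes. Ube2l6 is the E2 that attaches the ubiquitin-like protein Isg15. Fbxo7 is the substrate-binding part of an SCF ligase. Bnip3l, also called Nix, is the receptor on mitochondria that recruits the autophagy machinery in reticulocytes, and Ulk1 is the kinase that starts autophagy. Xpo7 exports proteins, histones among them, from the nucleus of erythroblasts.

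RefSeq promoter sequence on GRCm38.p6 was at hand for 5 of the 8 genes, namely Trim10, Trim58, Ube2l6, Fbxo7 and Ulk1. The 250 bases before the start site are shown for the 3 genes with the largest differences and for Ulk1, which differed least, so that the matches found in them can be set side by side. Each reads 5′ to 3′ on the gene's own strand, and capitals mark matches on either strand to a GATA factor site (AGATAA or AGATAG or TGATAA or TGATAG) or to a CACCC box of the kind KLF1 binds (CCNCNCCC, a spelling that GC boxes also match). The windows are chr17:36869324-36869573 on the plus strand for Trim10, chr11:58640215-58640464 on the plus strand for Trim58, chr2:84798578-84798827 on the plus strand for Ube2l6 and chr5:110810082-110810331 on the minus strand for Ulk1.
Trim10: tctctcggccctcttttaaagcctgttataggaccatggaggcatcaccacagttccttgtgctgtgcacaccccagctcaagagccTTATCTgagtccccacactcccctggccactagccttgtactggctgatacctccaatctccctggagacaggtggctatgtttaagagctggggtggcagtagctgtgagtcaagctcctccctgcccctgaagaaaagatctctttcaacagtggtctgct
Trim58: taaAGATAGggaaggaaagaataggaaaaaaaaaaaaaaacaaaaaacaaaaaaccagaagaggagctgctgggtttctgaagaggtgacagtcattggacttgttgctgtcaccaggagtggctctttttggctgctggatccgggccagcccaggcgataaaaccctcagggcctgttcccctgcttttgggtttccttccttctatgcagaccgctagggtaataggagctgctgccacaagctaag
Ube2l6: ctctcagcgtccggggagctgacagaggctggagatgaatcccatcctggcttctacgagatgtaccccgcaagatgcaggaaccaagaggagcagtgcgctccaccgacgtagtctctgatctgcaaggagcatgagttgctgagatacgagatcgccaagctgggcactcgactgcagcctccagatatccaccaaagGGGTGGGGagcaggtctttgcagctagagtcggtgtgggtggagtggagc
Ulk1: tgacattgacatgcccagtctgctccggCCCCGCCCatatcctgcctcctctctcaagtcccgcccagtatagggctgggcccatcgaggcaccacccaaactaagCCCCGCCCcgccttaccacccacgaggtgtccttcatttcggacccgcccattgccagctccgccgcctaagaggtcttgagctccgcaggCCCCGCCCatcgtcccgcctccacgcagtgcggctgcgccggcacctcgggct
Over 300 bases, which add the first 50 from the start site, Trim10 and Trim58 held 1 GATA match each and no CACCC match. Ube2l6 held no GATA match and 2 CACCC matches, of which 1 lies 3 bases into the transcript and is not in the sequence shown. Ulk1 held no GATA match and 3 CACCC matches. Neither of the 2 overlapping windows of Fbxo7 held a match. Of all 32851 promoter windows of this length in the table, 29.8% held a GATA match, 49.5% a CACCC match and 10.2% both, so matches such as these are common. A match is a string of letters and not a measured binding site.

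The libraries held between 31898339 and 44544889 reads assigned to genes. Levels are given as CPM, read counts relative to the library's total, scaled by TMM, a factor that balances libraries on the typical gene. As a check of the labels, Pcbp2 stood at 1.39 to 2.24 CPM in knockout. In wild type replicates 1 to 4 it stood at 165, 329, 347 and 338 CPM. Replicate 1 thus lay well below the other wild-type libraries, and the reason was not tested. The tissue label fitted the markers: hepatoblast genes such as Alb and Afp and red cell genes such as Slc4a1 were read in every library. Several marker lists moved with the groups. Here a marker fell or rose if its edgeR adjusted p was under 0.05, as 3.43% and 1.59% of all tested genes did. The 11 red cell markers summed to 3910 to 7750 CPM in wild type and 1920 to 3200 CPM in knockout, and 6 of 11 fell. Of macrophage markers 5 of 7 fell (sums of 274 to 303 against 182 to 230 CPM), and of megakaryocyte markers 5 of 6 fell (268 to 373 against 143 to 164 CPM). Of endothelial markers 3 of 6 rose (149 to 208 against 224 to 289 CPM). Of cardiac markers 3 of 7 rose (69.2 to 128 against 75.0 to 352 CPM), with Nppa at 0 reads in at least 1 library. Of 6 early blood progenitor markers 2 fell (161 to 183 against 147 to 209 CPM), and none of 7 hepatoblast markers passed the edgeR test (5730 to 12000 against 7150 to 9100 CPM). Their part in the differences below was not tested. In bulk tissue, fewer cells of a type and less RNA per cell cannot be told apart.

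In the knockout livers 6 of the 8 genes, Ube2l6, Trim10, Trim58, Xpo7, Ube2o and Fbxo7, were lower past the threshold, an adjusted p under 0.05 in edgeR's quasi-likelihood test over all 16226 tested genes. Bnip3l and Ulk1 were not past it, and no member was higher. The same test called 3.43% of all tested genes lower, 1.59% higher and 5.02% in either direction. Over all genes that balance of 556 lower and 258 higher rested on the scaling, since total counts in place of TMM gave 393 and 651. With 1 library left out, the counts ran from 116 lower and 24 higher (without knockout replicate 5) to 753 and 418 (without wild type replicate 2), and at least 1 of them moved by over 1.5 times for each library except knockout replicate 3. The 8 log2 differences, knockout minus wild type, ran from -2.05 to 0.01 with a median of -0.94, and the median over all tested genes was 0.01. All knockout libraries lay below all wild-type libraries for the 6 genes, a pattern that 10.8% of tested genes showed. DESeq2, which called 6.51% of all genes lower and 3.8% higher, and limma-voom also called 6 members lower, as did edgeR with total-count scaling. By the authors' deposited table, 6 of the 8 also had an adjusted p under 0.05, where 6.86% of genes were lower by that rule.

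**Figure D1:**
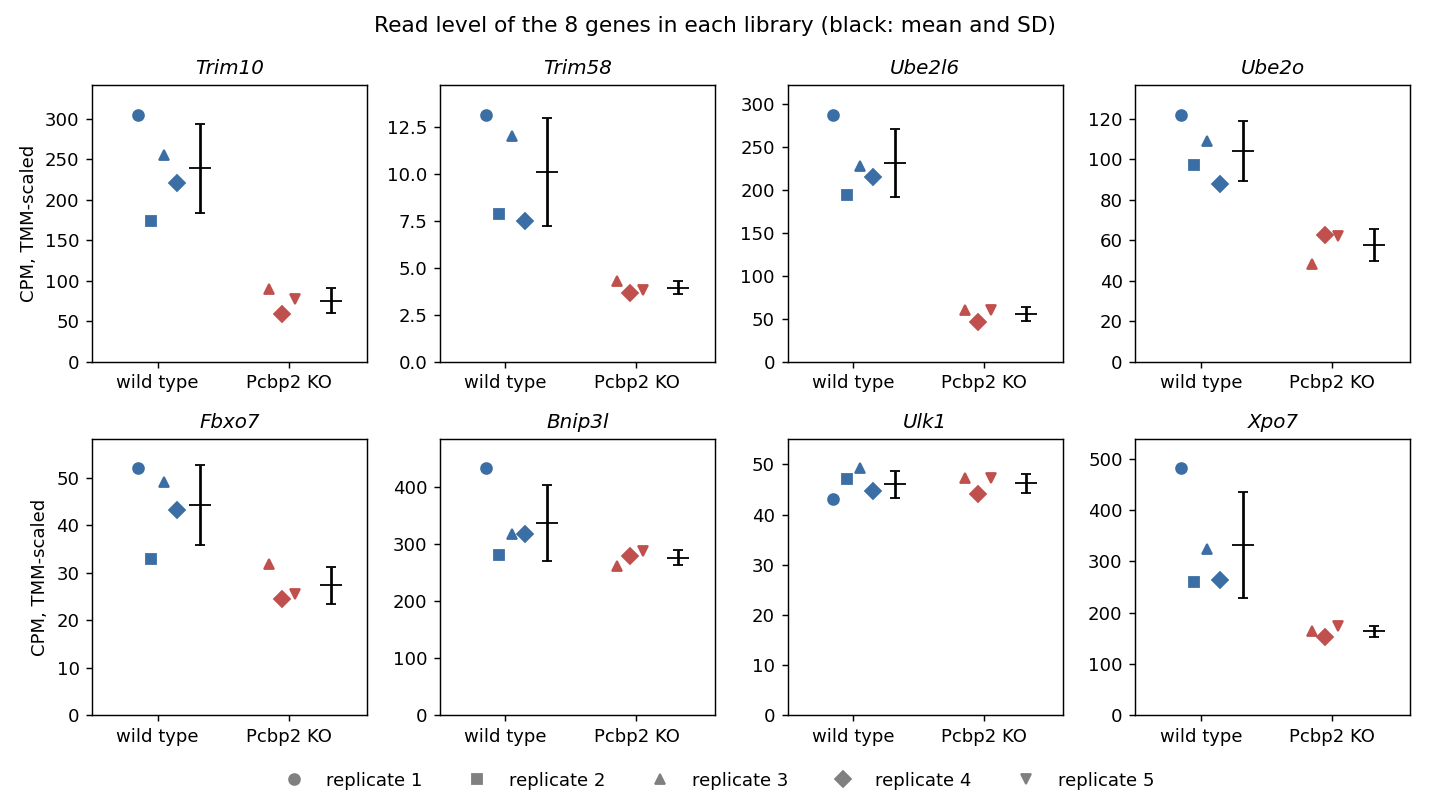
Level of each of the 8 genes in TMM-scaled CPM (vertical axis, from 0, a different range for each gene) in 4 wild-type libraries (blue) and 3 Pcbp2 knockout libraries (red), with marker shapes for replicate numbers and black bars for mean and SD. The groups do not overlap for 6 genes, while those of Bnip3l and Ulk1 do.

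Among the ligases, Trim10 (ENSMUSG00000073400.5, mm10 chromosome 17, 36869574 to 36877833, 7 exons) had 305, 174, 255 and 221 CPM in wild type replicates 1 to 4 and 89.8, 58.7 and 78.0 CPM in knockout replicates 3 to 5. The highest knockout library stood well below the lowest wild-type one. Means were 239 ± 55.4 (SD, n = 4) and 75.5 ± 15.7 CPM (SD, n = 3), and the log2 difference was -1.66 ± 0.20 (SE; edgeR adjusted p = 0.00378). Trim10 stayed past the threshold whichever library was left out, at -1.80 to -1.51.

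Trim58 (ENSMUSG00000037124.6, chromosome 11, 58640465 to 58652404, 6 exons) was the least read of the 8 genes, with 322 to 439 reads in wild type and 135 to 165 in knockout. Its levels were 13.17, 7.86, 12.01 and 7.50 CPM in wild type and 4.32, 3.64 and 3.85 CPM in knockout. The wild-type libraries fell into a higher pair, replicates 1 and 3, and a lower pair, replicates 2 and 4, all above the knockout ones. The log2 difference was -1.36 ± 0.23 (SE; edgeR adjusted p = 0.0103), and 0.0621 without knockout replicate 5.

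Fbxo7 (ENSMUSG00000001786.8, chromosome 10, 86021972 to 86051873) had 52.0, 33.0, 49.1 and 43.1 CPM in wild type and 31.9, 24.5 and 25.5 CPM in knockout. The groups came close to touching, at wild type replicate 2 and knockout replicate 3. The log2 difference was -0.70 ± 0.16 (SE; edgeR adjusted p = 0.0398), the member nearest the threshold among those past it. It passed in only 2 of the 7 fits with a library left out, those leaving out wild type replicate 2 or knockout replicate 3. Dropping wild type replicate 1, 3 or 4 gave an adjusted p of 0.0821, 0.0997 or 0.0827, and dropping knockout replicate 4 or 5 gave 0.123 or 0.167. An antisense gene, A230060F14Rik, overlaps its exons but held at most 2 reads in any library.

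Of the conjugating enzymes, Ube2l6 (ENSMUSG00000027078.8, chromosome 2, 84798828 to 84810335) differed most among the 8 genes. It had 288, 195, 228 and 215 CPM in wild type and 60.6, 46.6 and 60.7 CPM in knockout, a clear gap. From lowest to highest library, wild type spanned 1.48-fold and knockout 1.3-fold. Means were 231 ± 40.0 (SD, n = 4) and 55.9 ± 8.11 CPM (SD, n = 3), so the knockout kept 24.2% of the wild-type level. The log2 difference was -2.05 ± 0.16 (SE; edgeR adjusted p = 0.000491), with the third smallest p of all tested genes and rank 4 by adjusted p in the authors' deposited table. With each library left out in turn it ran from -2.13 to -1.93.

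Ube2o (ENSMUSG00000020802.8, chromosome 11, 116537740 to 116581447, 18 exons) had 122, 97.1, 109 and 87.9 CPM in wild type and 48.5, 62.5 and 62.0 CPM in knockout. Here the lowest knockout library was replicate 3, which was the highest for Trim10, Trim58 and Fbxo7. The log2 difference was -0.85 ± 0.14 (SE; edgeR adjusted p = 0.00896), past the threshold whichever library was left out.

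Neither organelle gene passed the test. Bnip3l (ENSMUSG00000022051.9, chromosome 14, 66985239 to 67008877) had 432, 280, 317 and 317 CPM in wild type and 261, 279 and 287 CPM in knockout. Wild type replicate 1 stood high, replicates 3 and 4 lay above the knockout range by a smaller gap, and replicate 2 lay inside it. Its log2 difference of -0.29 ± 0.14 (SE) did not pass (edgeR adjusted p = 0.277), and it was -0.14 without wild type replicate 1. Ulk1 (ENSMUSG00000029512.7, chromosome 5, 110784488 to 110810097) had 43.1, 47.1, 49.3 and 44.8 CPM in wild type and 47.3, 44.1 and 47.4 CPM in knockout. It was the steadiest of the 8 genes, with a highest to lowest ratio of 1.14 within wild type, and its log2 difference was 0.01 ± 0.09 (SE; edgeR adjusted p = 0.975).

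Xpo7 (ENSMUSG00000022100.7, chromosome 14, 70654246 to 70766628) had 481, 259, 324 and 264 CPM in wild type and 164, 153 and 175 CPM in knockout. It had the widest wild-type spread of the set, 1.86-fold from lowest to highest, and a narrow knockout range of 1.14-fold. The log2 difference was -1.02 ± 0.20 (SE; edgeR adjusted p = 0.0217). The adjusted p became 0.0512 when wild type replicate 3 was dropped, and 0.0729 or 0.0863 when knockout replicate 4 or 5 was. Its annotated exons overlap those of Npm2 on the same strand, a gene with 9 to 26 reads per library.

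Some libraries stood high or low for several of the genes. Wild type replicate 1 was the highest wild-type library for 7 of the 8 genes, the exception being Ulk1, for which it was the lowest, and wild type replicate 2 was the lowest for 5. Replicate 1 also had the highest red cell marker sum, 7750 CPM, and replicate 2 the lowest of wild type, 3910 CPM. Between 3 and 6 members were lower past the threshold when a library was left out. Without knockout replicate 5 these were Trim10, Ube2l6 and Ube2o, and 4 remained without wild type replicate 3 or knockout replicate 4. Without wild type replicate 1, the library with the least Pcbp2 in its group, 5 remained.

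Per kilobase of the longest principal transcript, the wild-type order of levels was led by Ube2l6 at 148 ± 25.6 CPM per kilobase (SD, n = 4), followed by Trim10 at 106 ± 24.7, Bnip3l at 104 ± 20.4 and Xpo7 at 74.3 ± 23.2. The spreads of each neighbouring pair among these overlapped. Far below came Ube2o at 20.0 ± 2.84, then Ulk1 at 8.83 ± 0.518, Fbxo7 at 8.22 ± 1.56 and Trim58 at 4.62 ± 1.31, with Ulk1 and Fbxo7 within each other's spread. In knockout Bnip3l led at 85.1 ± 4.23 CPM per kilobase (SD, n = 3). Xpo7 at 36.6 ± 2.45, Ube2l6 at 35.9 ± 5.20 and Trim10 at 33.6 ± 6.99 followed within their spreads. The mitochondrial receptor was thus the third most abundant transcript of the set per length in wild type and the first in knockout. The length matters for Xpo7, whose merged annotated exons of 19005 bases exceed its transcript of 4472 bases and give 17.5 CPM per kilobase in wild type.

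To set the 8 genes beside red cell regulators rather than the whole liver, libraries were scaled to 7 genes for erythroid factors, Gata1, Klf1, Tal1, Zfpm1, Nfe2, Gfi1b and the erythropoietin receptor Epor. This is not a neutral yardstick, since the differences of all 7 were negative. Nfe2 (log2 -1.32), Tal1 (-0.92) and Klf1 (-0.81) had fallen past the threshold themselves. Gata1 (-0.67), Epor (-0.62), Zfpm1 (-0.28) and Gfi1b (-0.03) did not pass it. On this scale Ube2l6 was still lower by -1.39 ± 0.23 (SE; edgeR adjusted p = 0.000741) and Trim10 by -1.0 ± 0.22 (edgeR adjusted p = 0.00612), 2 of the 8 genes, where 0.740% of all genes were lower. Trim58 was at -0.69 ± 0.31 (edgeR adjusted p = 0.0623), Xpo7 at -0.34 ± 0.23 (0.203), Ube2o at -0.18 ± 0.24 (0.505) and Fbxo7 at -0.04 ± 0.23 (0.894). Bnip3l was at 0.38 ± 0.23 (edgeR adjusted p = 0.151). Ulk1 rose by 0.64 ± 0.24 (edgeR adjusted p = 0.0358), but so did 45.5% of all genes on this scale, whose median was 0.65, and its call held in 2 of the 7 fits with a library left out.

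**Figure D2:**
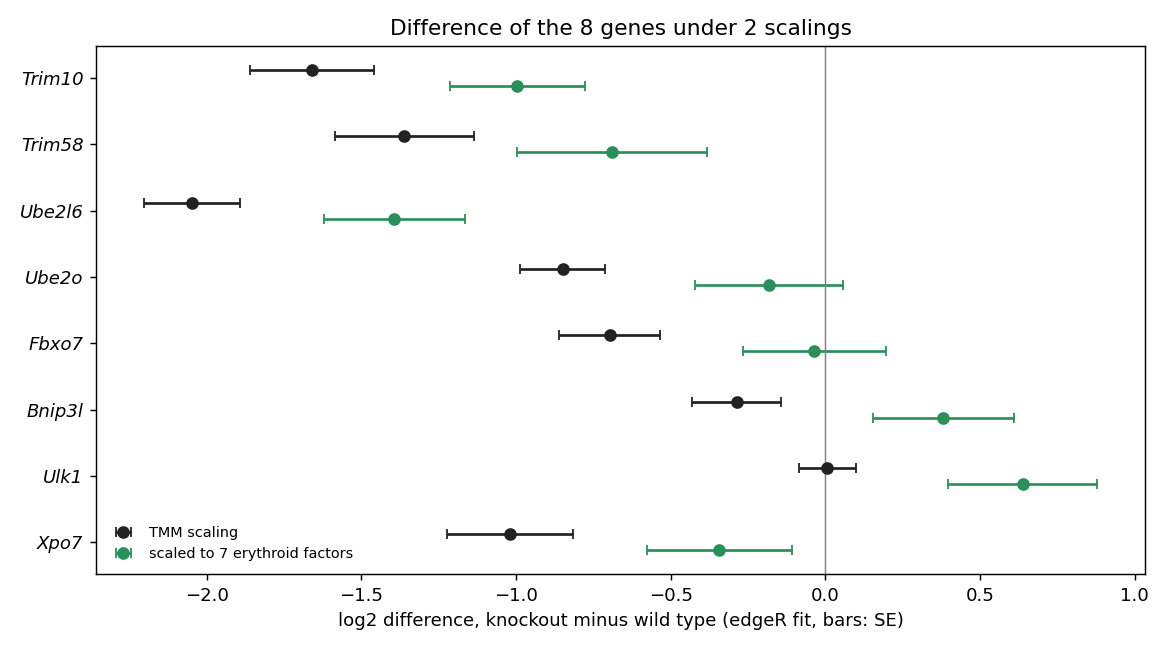
Log2 difference, knockout minus wild type, of each of the 8 genes with SE bars from the edgeR fit under TMM scaling (black) and scaled to 7 erythroid factor genes (green). Rescaling shifts the zero by much the same amount for every gene, so the order of the genes stays alike by construction. Ube2l6 is at -2.05 and -1.39, and Ulk1 at 0.01 and 0.64.

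Library by library, the log2 level of Ube2l6 over the mean of the 7 factors was 1.41, 1.44, 0.92 and 1.11 in wild type and -0.29, -0.35 and 0.12 in knockout. That of Trim10 was 1.49, 1.28, 1.08 and 1.14 in wild type and 0.28, -0.01 and 0.48 in knockout. Both kept a gap between the groups. Fbxo7 instead followed the factors closely in all 7 libraries, at -1.17 ± 0.11 (SD, n = 4) in wild type and -1.21 ± 0.07 (SD, n = 3) in knockout.

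**Figure D3:**
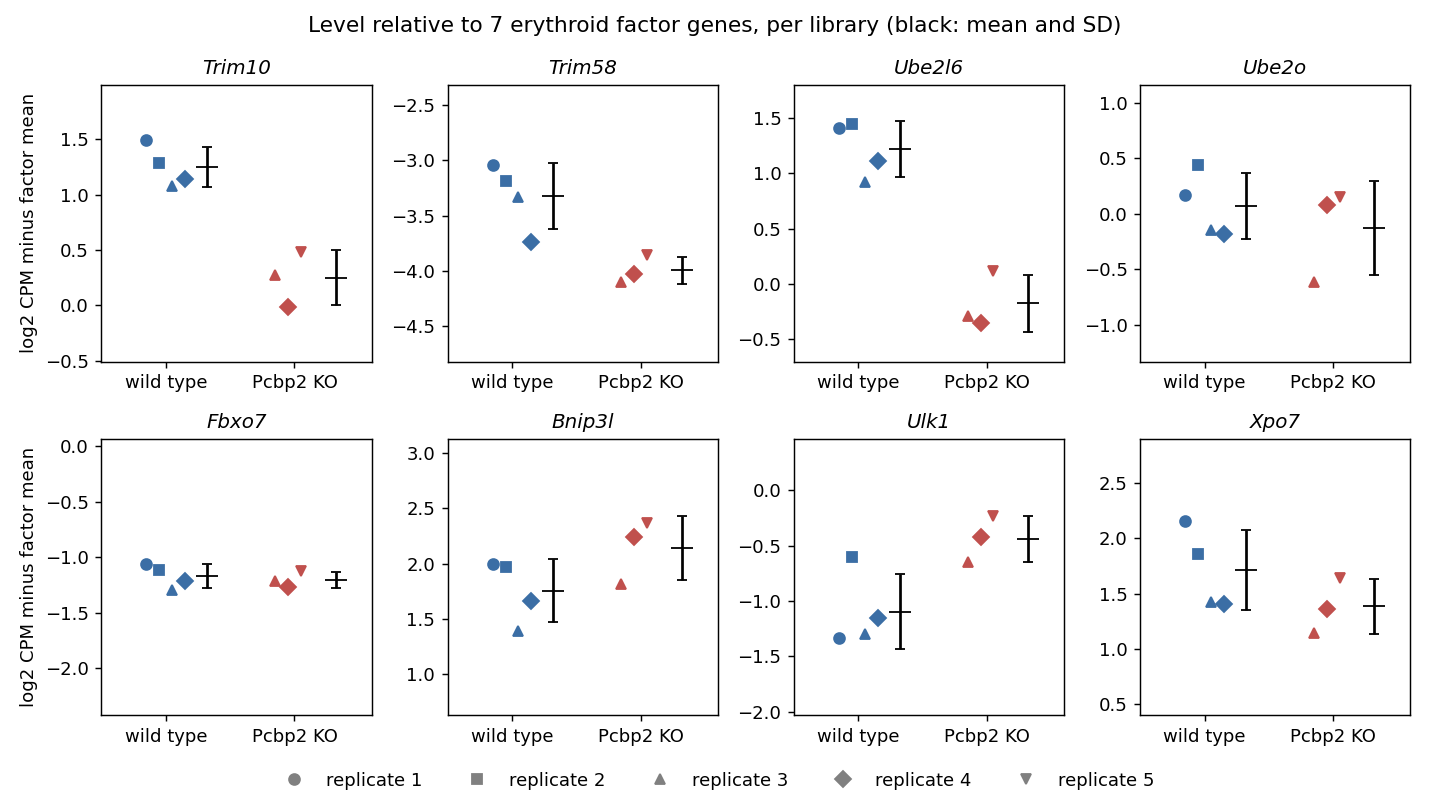
Log2 CPM of each of the 8 genes minus the mean log2 CPM of 7 erythroid factor genes, per library, in wild type (blue) and Pcbp2 knockout (red), with mean and SD in black and the same vertical span in every panel. The groups stay apart for Trim10, Ube2l6 and, by a small gap, Trim58, and overlap for the other genes.

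The wider pathways and families were read from lists that leave out the 8 genes. Of 265 tested genes in these lists 11 fell by edgeR, a share of 4.15% beside 3.43% of all tested genes. None rose with TMM scaling, but with total-count scaling 9 were lower and 6 higher. At an unadjusted p under 0.05, 46 were lower and 14 higher, shares of 17.4% and 5.28% beside 11.8% and 9.98% of all tested genes. DESeq2 called 22 lower and 2 higher, and limma-voom 9 lower. Leaving out wild type replicate 2 raised the count of 11 to 17, and leaving out knockout replicate 4 or 5 lowered it to 7 or 4. Over all genes the counts also rose without wild type replicate 2, from 556 lower and 258 higher to 753 and 418. They fell without knockout replicate 5.

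In autophagy and mitophagy 3 of 42 tested genes fell, with a list median of -0.08. Of these, 2 encode proteases that trim the Atg8 proteins coating the engulfing membrane. Atg4d was at 43.7, 34.1, 45.0 and 51.7 CPM in wild type and 20.3, 22.3 and 20.1 CPM in knockout, with a log2 difference of -1.06 ± 0.14 (SE; edgeR adjusted p = 0.00505). Atg4a averaged 1.94 and 0.919 CPM, a log2 difference of -1.08 ± 0.26 (SE; edgeR adjusted p = 0.0467). The other was Gabarapl2, itself an Atg8 protein, with means of 99.6 ± 15.6 and 59.1 ± 4.62 CPM and a log2 difference of -0.75 ± 0.13 (SE; edgeR adjusted p = 0.0113). Bnip3, the hypoxia-inducible relative of Bnip3l, ran from 76.2 to 94.9 CPM in wild type and was 89.6, 261 and 149 CPM in knockout replicates 3, 4 and 5, where replicate 3 lay inside the wild-type range (edgeR adjusted p = 0.0632). Ulk2, the relative of Ulk1, was at 0.15 ± 0.11 (edgeR adjusted p = 0.441).

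Among other ubiquitin genes, the CTLH ligase, which with the E2 Ube2h acts in red cell precursors, had 1 of 12 members lower (list median -0.07). This was Ranbp10, a scaffold subunit, at 208, 124, 184 and 137 CPM in wild type and 92.7, 73.1 and 80.3 CPM in knockout, with a log2 difference of -0.99 ± 0.18 (SE; edgeR adjusted p = 0.0144). Ypel5, another subunit, was at -0.76 ± 0.20 (0.0568) and Ranbp9, the relative of Ranbp10, at 0.33 ± 0.10 (0.0836). Of 32 other Ube2 genes 1 fell (median -0.05), the mitotic E2 Ube2c (log2 -0.67 ± 0.12, edgeR adjusted p = 0.0153). Of 32 other Fbxo genes 2 fell (median 0.04), Fbxo36 (log2 -1.95 ± 0.27, edgeR adjusted p = 0.00564) and Fbxo9 (-0.59 ± 0.14, 0.0462).

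Of 48 other Trim genes none passed by edgeR or limma-voom (median 0.04), 1 was lower by DESeq2 and 1 higher by edgeR with total-count scaling, and at an unadjusted p under 0.05 there were 3 lower and 5 higher. Trim56, the nearest to the threshold, was at -0.61 ± 0.17 (edgeR adjusted p = 0.0635). None of the 5 tested partners of Fbxo7 passed by edgeR, DESeq2 or limma-voom. At an unadjusted p under 0.05, 2 were lower, Rbx1 and the proteasome inhibitor Psmf1 (log2 -0.28 and -0.26). Of 39 genes with proteasome subunit symbols 1 fell (median -0.13), Psmb8, a subunit of the immunoproteasome, at 9.07, 9.05, 6.71 and 8.12 CPM in wild type and 3.36, 4.13 and 3.28 CPM in knockout, with a log2 difference of -1.20 ± 0.17 (SE; edgeR adjusted p = 0.00595). Its partner Psmb9 was at -0.89 ± 0.29 (0.11). Psmc3ip, which shares the symbol pattern but is a recombination factor, was at -0.36 ± 0.11 (0.0868).

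**Figure D4:**
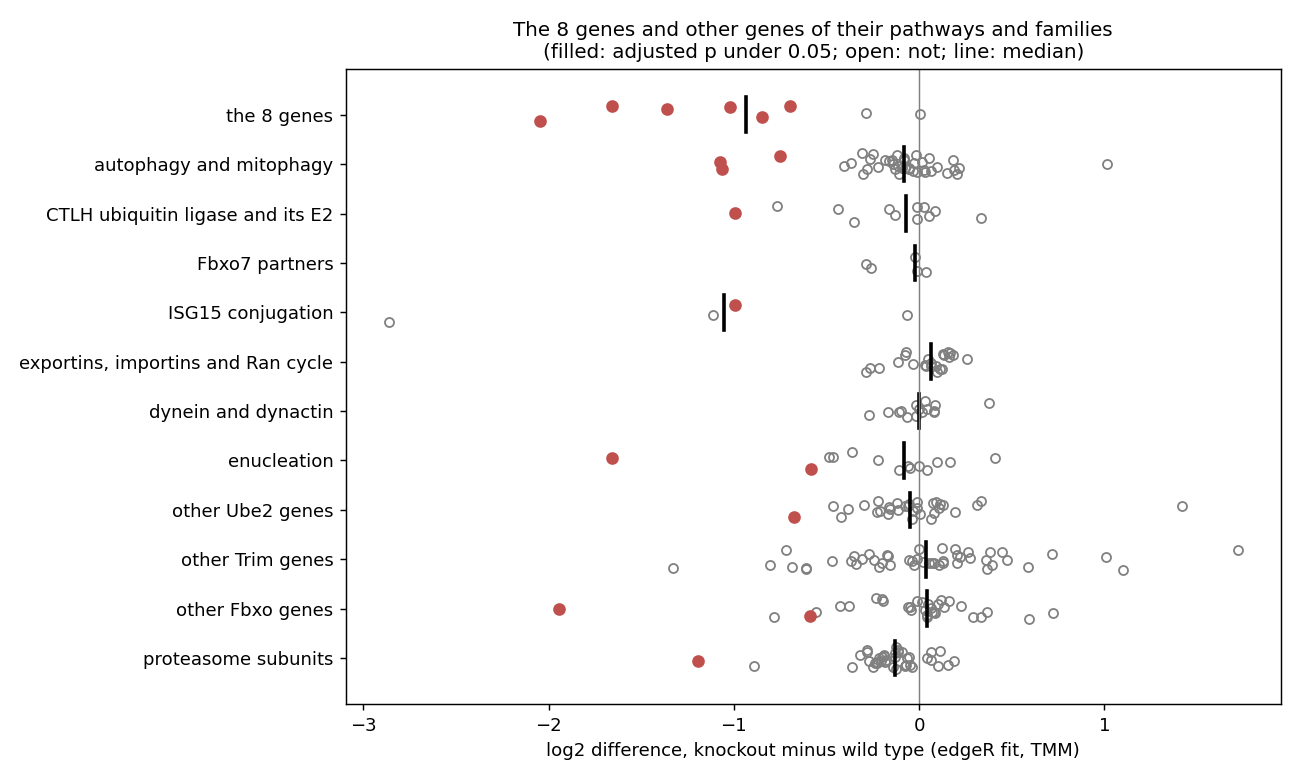
Log2 difference, knockout minus wild type, from the edgeR fit for the 8 genes and for each tested gene of 11 pathway and family lists (filled red, adjusted p under 0.05; open, not; black line, median). The median is -0.94 for the 8 genes and -1.05 for the 4 genes of Isg15 conjugation, of which 1 passed, and between -0.13 and 0.07 for the other lists.

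Of the Isg15 system, which Ube2l6 serves, 1 of 4 listed genes fell by edgeR and 3 by DESeq2. Uba7, the E1 that hands Isg15 to Ube2l6, had 70.0, 48.3, 52.7 and 40.4 CPM in wild type and 21.8, 28.3 and 29.4 CPM in knockout, and was the gene that fell by edgeR (log2 -0.99 ± 0.18, edgeR adjusted p = 0.0161). Isg15 itself had 11.8, 12.4, 1.86 and 1.89 CPM in wild type replicates 1 to 4 and 0.635, 0.861 and 1.37 CPM in knockout. Wild type replicates 1 and 2 stood far above the other libraries, and the difference of -2.86 ± 0.74 did not pass (edgeR adjusted p = 0.0548). Usp18, the protease that removes Isg15, showed the same pair, at 6.33 and 6.64 CPM against 2.14 and 2.32 CPM in wild type replicates 3 and 4 and 1.83 to 2.20 CPM in knockout (edgeR adjusted p = 0.151). Ube2l6 did not share that pattern, being lowest of wild type in replicate 2, where Isg15 was highest. No gene of this list passed by edgeR without knockout replicate 5. The list median of -1.05 was -0.53 among genes with at least 5 CPM in 3 libraries.

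No gene of the nuclear transport and motor lists, which leave out Xpo7, passed the edgeR test. That test found 29.9% of simulated 1.5-fold changes. Of 23 exportins, importins and Ran cycle genes none passed by edgeR, DESeq2 or limma-voom, with 2 lower at an unadjusted p under 0.05 (Ipo13, log2 -0.29, and Rangap1, -0.22), and the list median was 0.07. Ranbp17, the closest relative of Xpo7, had 9.44 ± 0.856 CPM (SD, n = 4) and 10.5 ± 1.17 CPM (SD, n = 3), a difference of 0.16 ± 0.13. Of 15 dynein and dynactin genes, the motor that Trim58 marks, none passed by edgeR, DESeq2 or limma-voom, none had an unadjusted p under 0.05, and the differences ran from -0.27 to 0.38.

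Of 14 genes known for enucleation 2 fell, with a list median of -0.08. E2f2, a cell cycle factor of terminal erythroblasts, had 202, 109, 178 and 125 CPM in wild type and 62.6, 37.2 and 46.1 CPM in knockout, with a log2 difference of -1.66 ± 0.24 (SE; edgeR adjusted p = 0.00595). Its wild type replicates 1 and 3 were high, as for Trim58. Lmna, a nuclear lamina protein, averaged 89.8 CPM in wild type against 59.9 CPM in knockout, with a log2 difference of -0.58 ± 0.11 (SE; edgeR adjusted p = 0.0202).

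The nearest tested gene on each side of the 8 genes gave 16 neighbours on the chromosome. Among these, 1 was lower and 1 higher past the threshold, where 3.43% and 1.59% of all tested genes were. Smtnl1, 841 bases beyond Ube2l6 and on the other strand, averaged 0.237 CPM in wild type against 1.402 CPM in knockout and rose by 2.59 ± 0.46 on the log2 scale (SE; edgeR adjusted p = 0.0139). Dok2, a signalling adaptor of blood cells whose span overlaps that of Xpo7 head to head, had 15.1 ± 1.92 CPM in wild type against 8.01 ± 1.01 CPM in knockout, with a log2 difference of -0.91 ± 0.15 (SE; edgeR adjusted p = 0.00961). The annotated exons of Dok2 and Xpo7 do not overlap. Trim15, a relative of Trim10 lying 2364 bases from it, was at 0.476 and 0.507 CPM.

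As a description over 7 libraries that share the 2 groups, the 5 genes at 5 CPM or more whose log2 levels followed the mean standardised level of the 8 genes most closely were Slc4a1, the anion exchanger of the red cell membrane (Pearson r = 0.994), Kctd20 (0.993), Asb1 (0.991), Pin4 (0.991) and Ranbp10 (0.990). Of 10852 genes ranked, 165 had an r above 0.95. Slc4a1 had 1875 ± 533 CPM in wild type against 689.7 ± 146 CPM in knockout, with a log2 difference of -1.44 ± 0.23 (SE; edgeR adjusted p = 0.00961). Asb1, a SOCS-box protein, fell by 0.74 and Kctd20 fell by 0.34 on that scale, while Pin4 at -0.36 did not pass (edgeR adjusted p = 0.0854).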

How the data were processed

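Messenger RNA of fetal liver from 4 wild-type and 3 Pcbp2 knockout samples was sequenced from TruSeq stranded libraries, per the labels. The deposited count files hold raw read counts for 38924 genes, followed by 5 HTSeq summary lines that were left out. The submitters' processing notes name cutadapt 1.4.2, TopHat2, HTSeq, DESeq and DESeq2 and the build mm10, and no source at hand says whether the counting used strand. The authors' deposited table, per the file headers, gives for 15548 genes a mean normalized signal, a log2 fold change with its error, a test score (Wald statistic) and p-values.

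Names came from the authors' table, or from GENCODE M21, also used for coordinates and lengths. Counts were fitted in R 4.3.3 with edgeR 4.0.16 (filterByExpr, TMM, quasi-likelihood test, group as the only term, Benjamini-Hochberg adjustment over 16226 genes, threshold 0.05). Errors on CPM are SDs. On simulated data the fit recovered 29.9%, 76.1% and 97.0% of genes changed 1.5-fold, 2-fold and 4-fold, and 12 of 147 calls were false. Replicates of a group differed beyond sampling noise. The members and lists were chosen with earlier results of these data known. Named besides the members are, for each list, up to 3 genes with the smallest p, the nearest tested gene on each side of a member and the 5 genes most like the members' mean pattern (predicted and clone names left out). Beyond this rule, Bnip3, Ulk2 and Ranbp17 were added as relatives of members after their values were seen, and A230060F14Rik for its exon overlap. Alternatives were RLE, total-count and erythroid factor scaling, globin genes left out, 2 other filters, DESeq2 1.42.0, limma-voom 3.58.1, a replicate block and each library left out. Transcript length in place of merged exons was chosen after seeing the data. A planned second set of reference genes and 1 named gene are not reported here.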

Additional observations from a re-analysis of the deposited data

How the results depend on the processing

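Under RLE and total-count scaling, without globin genes, unfiltered, with at least 5 CPM in 3 libraries, with DESeq2, with limma-voom and with the replicate block, the same number of members, 6, was lower past the threshold. With libraries scaled to erythroid factors it was 2, and it ran from 3 to 6 with each library left out. Total-count scaling moved the median of all genes by 0.12, from 0.01 to 0.14. Of other pathway and family genes, 11 were called, against 126 scaled to erythroid factors, 17 when unfiltered and 24 with DESeq2, and from 4 to 17 with each library left out. Calls over all genes moved too, from 556 lower and 258 higher in the main fit. They were 120 and 7379 scaled to erythroid factors, 737 and 333 when unfiltered, and 1057 and 617 with DESeq2. On the erythroid factor scale 2 members were lower, and 2 to 3 with each library left out. The numbers in the titles pair only replicates 3 and 4 across the groups, and nothing says that they mark a shared litter. Deviations of those pairs correlated at 0.319 and 0.258, the highest of all wild type and knockout pairs. Pairs with different numbers ran from -0.329 to 0.153. Whether a shared batch lies behind this was not tested. With the replicate block, which left 1 residual degree of freedom, calls over all genes rose to 1204 lower and 852 higher. In that fit 39 pathway and family genes were called instead of 11, 1 exportin or importin gene among them. The Isg15 list median was -0.56.

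Among the members, signs that turned were those of differences not past the threshold. Ulk1 was at -0.0024 when unfiltered, at -0.0398 with the replicate block, and between -0.0246 and 0.0404 with each library left out. Bnip3l turned from -0.29 to 0.38 scaled to erythroid factors, where the median of all genes was 0.645. On the factor scale with each library left out, Fbxo7 ran from -0.0774 to 0.0017 and Ube2o from -0.321 to 0.0221, positive in the former only without wild type replicate 1 and in the latter only without knockout replicate 3. Except where construction shows it (a shifted zero, fewer libraries), the cause was not tested. Trim58 had the fewest reads of the members, 135 in its lowest library.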
